A study of Mus musculus with 2 samples.

Results

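Transcripts of 9 transcription factors of the myeloid lineages were examined in single cells sorted from mouse brain. The 9 genes, Sall1, Maf, Mef2c, Irf8, Runx1, Cebpa, Spi1, Cebpe and Gfi1, were chosen by name from the 32285 genes counted, and all 9 had counts in both libraries. The cells came from whole brains of male littermates of 23 weeks, either Disc1 WT/WT or homozygous for a locus impairment of Disc1 (Disc1 LI/LI). Brains of 6 mice per genotype were pooled, CD45low CD11b+ cells were sorted after dissociation in the presence of actinomycin D, and 1 droplet library was made per genotype. The mice of a pool cannot be told apart, so the experiment has no replicates, no test was made, and every interval below is a 95% interval that covers counting error only.

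Blood and brain myeloid cells are set apart by a small number of transcription factors that act in combination. Spi1 (PU.1) opens the myeloid program in all its branches, Cebpa takes progenitors toward granulocytes and monocytes, and Irf8 and Gfi1 pull those progenitors in opposite directions, toward monocytes and dendritic cells or toward neutrophils. Cebpe then drives the late granulocyte program with its secondary granule proteins, while Sall1, Maf and Mef2c belong to tissue macrophages, of which microglia are those of the brain parenchyma.

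The Disc1 WT/WT library held 7038 barcodes with 33601957 unique molecular identifiers (UMIs, each marking 1 captured transcript), and the Disc1 LI/LI library held 7834 barcodes with 47731571. Disc1 itself had 642 UMIs in the WT/WT library (19.1 CPM, UMIs per 1000000 UMIs) and 22 in the LI/LI library (0.461 CPM). Of the cells kept, 7032 and 7817, each was placed by marker transcripts that include none of the 9 factors. A cell was called microglia where at least 0.5% of its UMIs came from 6 microglial genes (P2ry12, Gpr34, Tmem119, Siglech, Fcrls and Olfml3) and under 1% from S100a8 and S100a9, a neutrophil where at least 3% came from S100a8 and S100a9, and a progenitor where at least 0.2% came from the primary granule genes Mpo, Elane, Prtn3 and Ctsg. Both samples are labelled as microglia. In the WT/WT library 6180 cells (87.9%) were microglia, 116 (1.65%) neutrophils, 7 (0.0995%) progenitors and 729 (10.4%) other cells, against 1950 (24.9%), 3622 (46.3%), 166 (2.12%) and 2079 (26.6%) in the LI/LI library. In both libraries all 8 microglial markers outside the gate were higher in the microglia than in the remaining cells, and all 8 neutrophil markers were higher in the neutrophils. Of 8 further progenitor markers, 5 (LI/LI) and 3 (WT/WT) were higher in the progenitors, and all 6 cycling and all 5 basophil and mast cell markers were higher there too, with the latter summing to 1307 CPM (LI/LI) and 2574 (WT/WT). Monocyte markers were also frequent in the progenitors, with 3 (LI/LI) and 6 (WT/WT) of 6 higher there and sums of 6807 and 6101 CPM. The 2 libraries share 12 barcodes. A cell in both the neutrophil and the progenitor gate (1 WT/WT, 68 LI/LI) was counted as a neutrophil, 302 and 210 cells lay within 20% of the microglial limit, and no doublets were removed.

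Promoters of 6 of the 9 factors were found in the RefSeq table of GRCm38.p6. Maf, Spi1 and Cebpe were not. The 250 bases before the first listed start of Irf8 and of Gfi1 are printed because these 2 factors had opposite patterns within the progenitors described below. Capitals mark matches, on either strand, to the letters GAAANNGA (IRF type), AATCAC (GFI1 type) or TTGCNNAA (C/EBP type).
Irf8, chr8:120736108-120736357, plus strand: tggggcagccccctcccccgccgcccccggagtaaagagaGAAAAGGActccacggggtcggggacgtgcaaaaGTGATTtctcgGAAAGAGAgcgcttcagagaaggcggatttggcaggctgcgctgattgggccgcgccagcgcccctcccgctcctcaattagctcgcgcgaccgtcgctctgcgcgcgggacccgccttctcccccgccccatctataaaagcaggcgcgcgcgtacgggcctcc
Gfi1, chr5:107725806-107726055, minus strand: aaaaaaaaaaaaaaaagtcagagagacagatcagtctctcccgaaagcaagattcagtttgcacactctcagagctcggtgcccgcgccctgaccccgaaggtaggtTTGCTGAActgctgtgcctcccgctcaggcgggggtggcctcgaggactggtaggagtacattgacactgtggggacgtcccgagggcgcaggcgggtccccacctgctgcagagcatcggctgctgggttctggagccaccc
The Irf8 window held 2 matches to GAAANNGA, letters found in 18.1% of the 32851 promoter windows in the table, and 1 match to AATCAC in reverse, found in 9.14%. The Gfi1 window held 1 match to TTGCNNAA, found in 9.56% of windows. It lies largely within the span given below for Gfi1, which comes from another annotation. The windows before the second listed starts of Irf8 and of Gfi1, not printed, held 1 match to GAAANNGA each. Neither printed window held GAGGAA (ETS type, 23.3% of windows), TGTGGT (RUNX type, 14.0%) or TAAAAATA (MEF2 type, 2.45%), and no 2 of the marked matches overlap.

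Levels are given as CPM over the UMIs of the same class of cells in the same library, and each gene is compared only with itself in other cells. Sall1, a zinc finger factor that keeps microglial identity (chr8:89027235-89044162, minus strand, GRCm38), had 319 CPM (312 to 325) in microglia of the WT/WT library and 227 (217 to 237) in those of the LI/LI library. Outside microglia it was lower in every class. In neutrophils it had 85.4 (64.7 to 111) and 8.02 (6.87 to 9.30), in progenitors 16.0 (3.30 to 46.7; 3 UMIs) and 1.56 (0.573 to 3.40; 6 UMIs), and in the other cells 40.0 (33.5 to 47.4) and 9.65 (8.09 to 11.4), in WT/WT and LI/LI order. After thinning each cell to 1000 UMIs, 25.8% and 21.5% of microglia had a Sall1 UMI, against 3.48% and 0.636% of neutrophils (68.1%, 55.6%, 17.2% and 2.93% before thinning, at median depths of 4271, 3787.5, 4844.5 and 4194 UMIs). Thinning left out 104 WT/WT and 17 LI/LI microglia, and 1 and 4 neutrophils.

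**Figure D1:**
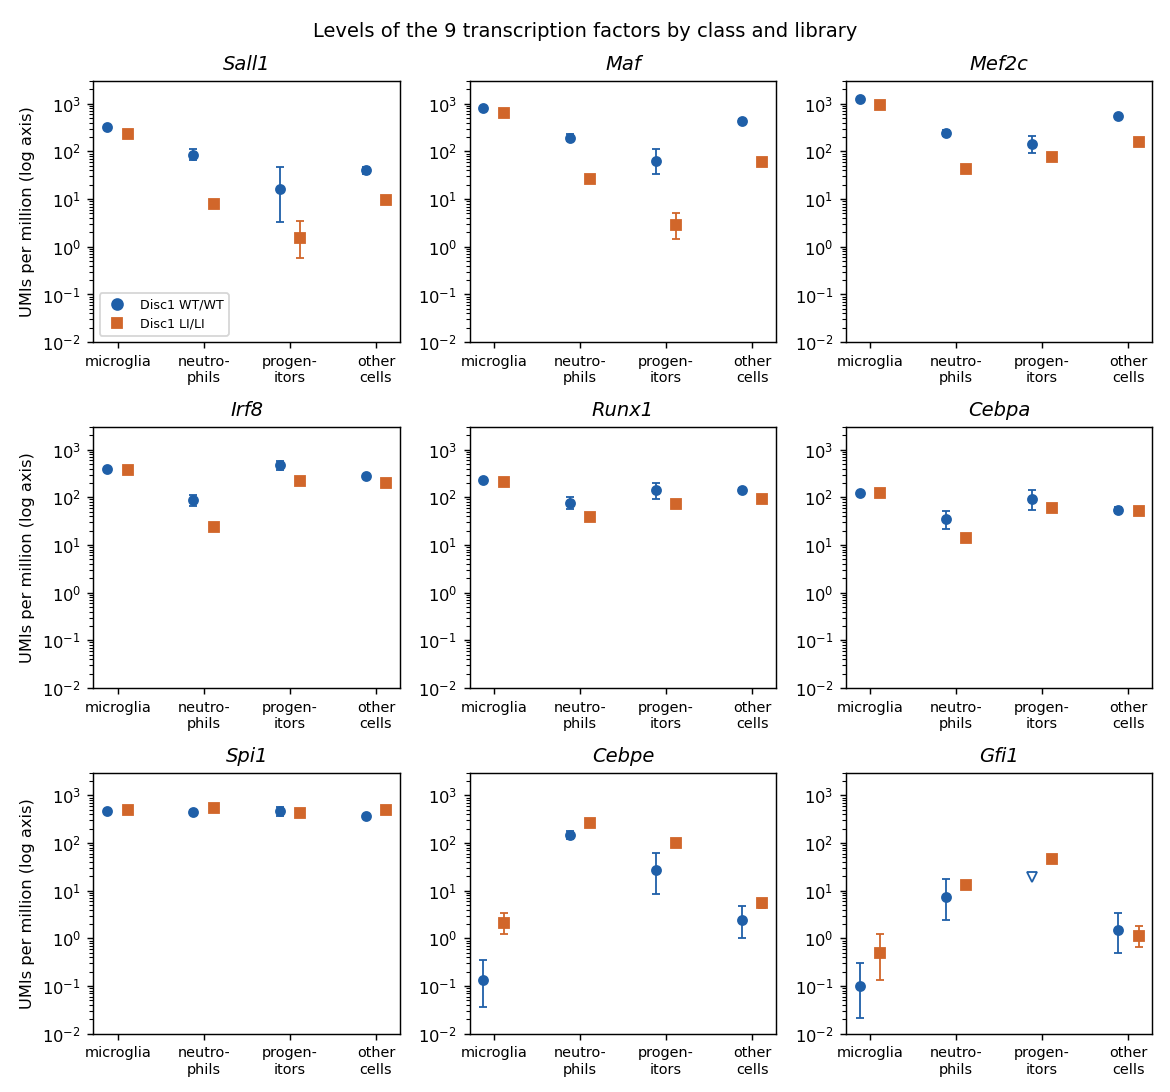
Level of each of the 9 factors, in CPM on a log axis, in microglia, neutrophils, progenitors and other cells of the Disc1 WT/WT library (circles) and the Disc1 LI/LI library (squares). Bars are 95% Poisson intervals and the open triangle is the upper limit for Gfi1 at 0 UMIs in 7 cells; Spi1 lies between 367 and 532 in every class, while Cebpe is highest in neutrophils of both libraries and Sall1 in microglia of both.

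Maf, a leucine zipper factor of mature macrophages (chr8:115682942-115707794, minus strand), reached 799.9 CPM (789.7 to 810.2) in WT/WT and 645 (628 to 662) in LI/LI microglia. The other cells of the WT/WT library, which include macrophages of the brain borders, had 445 (423 to 468) and those of the LI/LI library 61.4 (57.4 to 65.7). In progenitors it had 12 UMIs (63.9 CPM, 33.0 to 112) and 11 UMIs (2.86, 1.43 to 5.12). Mef2c, a MADS box factor active in microglia and in B cells (chr13:83504034-83667080, plus strand), had 1280.2 (1267 to 1293) and 941 (920.3 to 962) in microglia, 244 (208 to 285) and 43.5 (40.8 to 46.4) in neutrophils, and 144 (94.8 to 209) and 76.0 (67.5 to 85.2) in progenitors. Like Maf it was highest in microglia of both libraries. In the other cells it had 543 (518 to 568) and 158 (151 to 164).

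Irf8 and Cebpa were at least 2-fold higher both in microglia and in progenitors than in neutrophils of each library, whereas Runx1 was so in microglia only. Irf8, which directs progenitors to monocytes and is needed by microglia (chr8:120736358-120756694, plus strand), had 392 (385 to 399.5) and 366 (353 to 379.6) in microglia, 464 (371 to 572) and 221 (206 to 236) in progenitors, and 86.9 (66.0 to 112) and 24.0 (22.0 to 26.2) in neutrophils. Its intervals in WT/WT microglia and progenitors overlap, whereas LI/LI microglia and progenitors lie apart. Irf8 overlaps the gene model Gm20388 on its own strand, which was not analysed here, and Maf, Runx1, Cebpa and Gfi1 overlap a gene on the opposite strand, so that reads of such pairs can be told apart only if the counting used strand. Runx1, which starts blood formation in the embryo and is kept in myeloid cells (chr16:92601466-92826149, minus strand), had 233 (228 to 239) and 206 (196 to 216) in microglia, 139 (90.5 to 203) and 72.6 (64.4 to 81.7) in progenitors, and 74.9 (55.6 to 98.8) and 39.0 (36.4 to 41.7) in neutrophils. Cebpa, a leucine zipper factor needed to form granulocyte and monocyte progenitors (chr7:35119293-35121928, plus strand), had 121 (117 to 125) and 122 (115 to 130) in microglia, 90.6 (52.8 to 145) and 59.1 (51.7 to 67.3) in progenitors, and 34.5 (21.9 to 51.7) and 13.7 (12.2 to 15.4) in neutrophils. For all 3 genes neutrophils had the lowest of the 4 class levels in each library.

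Spi1 (chr2:91082390-91115756, plus strand) varied least between the classes. It had 473 (465 to 480.5) and 487 (472 to 503) in microglia, 451 (402 to 505) and 532 (522 to 542) in neutrophils, 464 (371 to 572) and 437 (416 to 458) in progenitors, and 367 (347 to 389) and 490.2 (479 to 502) in the other cells. The WT/WT intervals of microglia, neutrophils and progenitors overlap. At 1000 UMIs per cell 37.3% and 36.3% of microglia and 43.5% and 44.4% of neutrophils had a Spi1 UMI.

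Cebpe and Gfi1 were on the granulocyte side. Cebpe, the factor of late granulocyte maturation (chr14:54710360-54712174, minus strand), had 148 (121 to 181) and 259.8 (253 to 267) CPM in neutrophils and 26.6 (8.65 to 62.2; 5 UMIs) and 102 (91.7 to 112) in progenitors. In microglia it had 4 UMIs in the WT/WT library (0.136 CPM, 0.0371 to 0.349) and 17 in the LI/LI library (2.08, 1.21 to 3.33). Gfi1, a zinc finger repressor needed for neutrophil formation (chr5:107716657-107726036, minus strand), had 7.49 (2.43 to 17.5; 5 UMIs) and 12.9 (11.5 to 14.5; 279 UMIs) in neutrophils. In LI/LI progenitors it had 46.9 (40.3 to 54.2), and no UMI was found in the 7 WT/WT progenitors, where a count of 3 would be 16.0 CPM. Microglia held 3 and 4 Gfi1 UMIs. A Cebpe UMI was found in 27.6% and 31.0% of neutrophils against 0.0647% and 0.872% of microglia, and after thinning in 6.96% and 10.2% against 0.0165% and 0.362%. In LI/LI microglia Cebpe stood at 0.801% of its neutrophil level (0.466 to 1.28). The 8 neutrophil markers had a median of 0.764% there, with Retnlg and Ltf at 0.736% and 0.614%. In WT/WT microglia Cebpe stood at 0.0917% (0.0245 to 0.242), beside a median of 0.0226% for the 7 neutrophil markers found there. Neutrophil markers other than Csf3r thus moved with Cebpe between the microglia of the 2 libraries. Csf3r stood at 53.4% of its neutrophil level in WT/WT and 56.2% in LI/LI microglia. The part of neutrophil transcripts in the Cebpe level was not tested.

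Between neutrophils and microglia, genes were counted as apart where they differed at least 2-fold with at least 20 UMIs over both sums. In the WT/WT library 6 of 8 factors with enough UMIs (Sall1, Maf, Irf8, Mef2c, Runx1 and Cebpa) were lower in neutrophils, as were 44.6% of 12084 genes, and 1 (Cebpe) was higher, as were 8.89%. In the LI/LI library the same 6 of 9 were lower, against 58.3% of 11763 genes, and 2 (Cebpe and Gfi1) were higher, against 13.9%. The median log2 ratio of neutrophils over microglia was -1.86 for the factors and -0.83 for all genes in the WT/WT library, and -3.15 and -1.31 in the LI/LI library. Cebpe was higher in neutrophils by a log2 ratio of 10.09 (8.69 to 11.99) in the WT/WT and 6.96 (6.28 to 7.74) in the LI/LI library, and Gfi1 by 4.72 (3.35 to 6.61) in the LI/LI library. Spi1 stood at 95.5% (84.9 to 107) and 109% (105 to 113) of its microglial level. With TMM factors in place of totals the ratios of neutrophils over microglia moved by 0.54 (WT/WT) and 1.36 (LI/LI), all genes lower made up 28.4% and 26.2% and all genes higher 12.8% and 27.4%. The 6 lower factors stayed at least 2-fold lower under that scaling, and Spi1 was then at least 2-fold higher in LI/LI neutrophils, while its ratio in the WT/WT library changed sign.

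**Figure D2:**
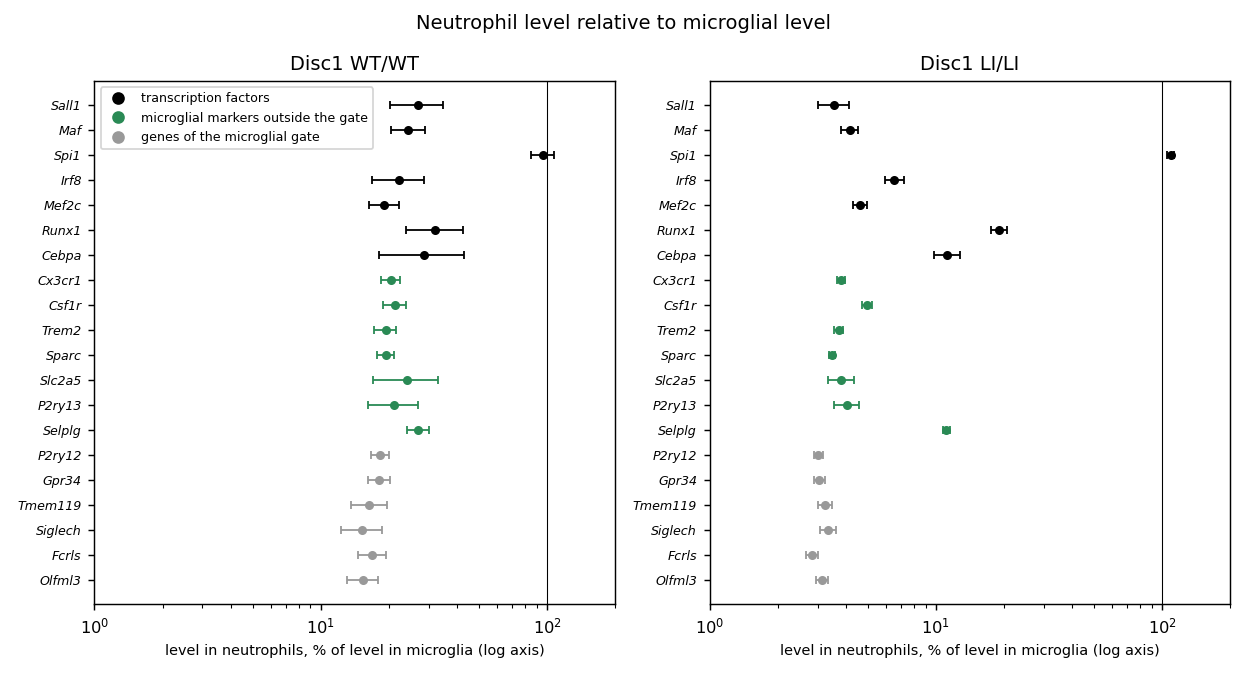
Level in neutrophils as a percentage of the level in microglia of the same library, on a log axis with 95% Clopper-Pearson intervals, for 7 of the factors (black), 7 of the microglial markers outside the gate (green) and the 6 gate genes (grey). In the WT/WT library 6 factors lie between 19.1% and 32.1% and the markers between 19.3% and 27.0%; in the LI/LI library Runx1 at 19.0% and Cebpa at 11.2% lie to the right of most markers, and Spi1 lies near 100% in both.

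Microglial transcripts were present in the neutrophils of both libraries. The 6 gate genes stood at 15.2% to 18.2% of their microglial level in WT/WT neutrophils and at 2.83% to 3.33% in LI/LI neutrophils, and 7 of the 8 markers outside the gate at 19.3% to 27.0% and 3.47% to 11.1%. Of the neutrophils, 11 of 116 and 57 of 3622 carried microglial genes at the level of the microglial gate. In the WT/WT library Sall1 stood at 26.8% (20.3 to 34.7) of its microglial level in neutrophils, Maf at 24.4% (20.3 to 28.9), Irf8 at 22.2% (16.8 to 28.7), Mef2c at 19.1% (16.3 to 22.3), Runx1 at 32.1% (23.8 to 42.4) and Cebpa at 28.5% (18.1 to 42.9). These intervals overlap the range of the markers. In the LI/LI library Sall1 at 3.54% (3.01 to 4.13), Maf at 4.15% (3.81 to 4.53) and Mef2c at 4.62% (4.32 to 4.95) lay within the range of the markers. Irf8 at 6.55% (5.96 to 7.20) was above 6 of these 7, and Cebpa at 11.2% (9.83 to 12.8) and Runx1 at 19.0% (17.4 to 20.6) were above all 7, although the interval of Cebpa reaches that of Selplg at 11.1%, which neutrophils also use. Where cells outside the microglial gate with at least 0.1% of UMIs from its genes were left out (27 of 116 and 178 of 3622 neutrophils), Sall1 had 1 UMI (2.52 CPM) in WT/WT and 24 UMIs (1.20) in LI/LI neutrophils, and Maf 5 UMIs (12.6) and 129 (6.44). Irf8 and Cebpa had 3 UMIs each in WT/WT neutrophils (7.57) and 13.7 and 9.69 CPM in LI/LI neutrophils, while Runx1 kept 42.9 and 33.4. That setting was added after the values were seen.

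Between the genotypes, 8 factors had enough UMIs in microglia. Only Cebpe was at least 2-fold apart, at a log2 ratio of LI/LI over WT/WT of 3.93 (2.32 to 5.96) on 21 UMIs in all, and 2.55% of 12249 genes were at least 2-fold higher. None of the 8 was at least 2-fold lower, as 4.93% of genes were. Sall1 was lower by a log2 ratio of -0.49 (-0.56 to -0.42), Mef2c by -0.44 (-0.48 to -0.41), Maf by -0.31 (-0.35 to -0.27), Runx1 by -0.18 (-0.26 to -0.11) and Irf8 by -0.10 (-0.16 to -0.041). Spi1 at 0.044 (-0.0068 to 0.095) and Cebpa at 0.015 (-0.088 to 0.12) had intervals that hold 0. All genes had a median of -0.19. With TMM factors the ratios moved by 0.088, 2.88% of genes were higher and 3.56% lower, and Cebpe was again the 1 factor apart. With at least 50 UMIs for a call, with doubled gates or after thinning it was not counted as apart. The ratio moved with gene length. Among genes of at least 50 CPM it had a median of 0.20 in the shortest of 4 classes of length, which holds Cebpa, 0.014 in the next, with Sall1 and Irf8, -0.23 in the next, with Maf and Spi1, and -0.44 in the longest, with Mef2c and Runx1. The part of length in these ratios was not tested. The spread between mice is not known for any of them.

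**Figure D3:**
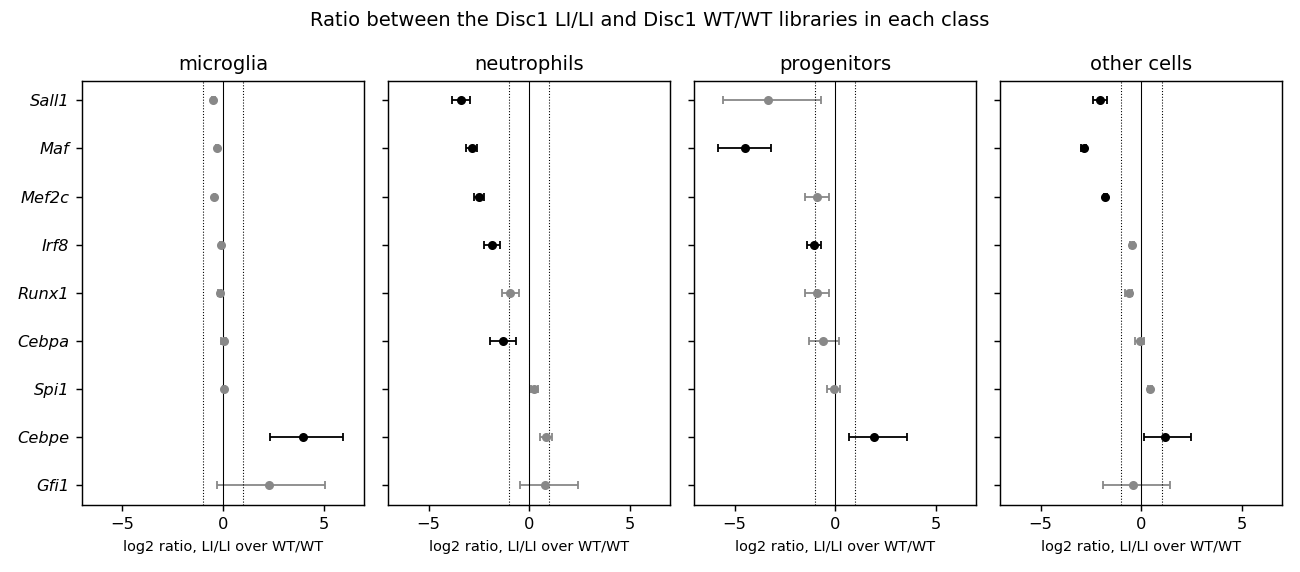
Log2 ratio of the Disc1 LI/LI over the Disc1 WT/WT library for each factor in the 4 classes, with 95% Clopper-Pearson intervals. Black points are at least 2-fold apart (dotted lines) with at least 20 UMIs and grey points are not; in microglia Sall1, Maf, Mef2c, Irf8, Runx1, Cebpa and Spi1 lie between -0.49 and 0.044, and Gfi1 in progenitors is not drawn since it had 0 UMIs in the WT/WT library.

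In neutrophils 5 of 9 factors were at least 2-fold lower in the LI/LI library, as were 22.6% of 10427 genes, and 0 were higher, as were 5.17%. Sall1 had a log2 ratio of -3.41 (-3.85 to -2.96), Maf of -2.86 (-3.14 to -2.58), Mef2c of -2.49 (-2.73 to -2.24), Irf8 of -1.86 (-2.25 to -1.44) and Cebpa of -1.33 (-1.94 to -0.65). Without the cells that hold at least 0.1% of UMIs of the microglial gate, Sall1 alone was at least 2-fold lower, at -1.07 (-3.69 to 4.29) on 1 WT/WT UMI, Maf was at -0.97 (-2.23 to 0.68) and Mef2c at -0.76 (-1.58 to 0.21). Irf8 turned to 0.85 (-0.71 to 3.14) and Cebpa to 0.36 (-1.21 to 2.65), each on 3 WT/WT UMIs. All 5 of these intervals hold 0, whereas Cebpe, at 0.63 (0.28 to 0.99), was above it. Cebpe at 0.81 (0.52 to 1.11) and Spi1 at 0.24 (0.072 to 0.41) were above 0 in all neutrophils. With TMM factors the ratios moved by 0.91, genes higher made up 23.6% and genes lower 6.50%, and Spi1, Cebpe and Gfi1 were then at least 2-fold higher while Sall1, Maf and Mef2c stayed lower.

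Progenitors could be compared only with 7 cells of the WT/WT library. Maf (log2 ratio -4.48, -5.80 to -3.17) and Irf8 (-1.07, -1.39 to -0.74) were at least 2-fold lower in the LI/LI library, against 17.1% of 8431 genes, and Cebpe (1.93, 0.70 to 3.56) and Gfi1 (at least 2.93-fold, against a floor of 3 UMIs over the 7 cells) were higher, against 7.71%. All 7 WT/WT progenitors had under 0.3% of UMIs from S100a8 and S100a9, as had 137 of the 166 LI/LI progenitors. Within that range Irf8 had 464 and 262 CPM, a log2 ratio of -0.83 (-1.15 to -0.49), and Cebpe 26.6 and 48.5, a ratio of 0.87 (-0.39 to 2.51), so that neither was 2-fold apart. Gfi1 had 25.4 CPM there in the LI/LI library, 1.59-fold higher against the same floor, and was then not 2-fold apart either. Maf stayed lower, at -4.28 (-5.65 to -2.94), on 12 WT/WT and 10 LI/LI UMIs. Over all progenitors Maf stood at 7.99% (WT/WT) and 0.444% (LI/LI) of its microglial level. There 7 microglial markers outside the gate had medians of 6.96% and 1.12%. Without cells holding at least 0.1% of UMIs of the microglial gate, Maf had 1 UMI in each library, too few for a call. The part of microglial transcripts in the Maf ratio was not tested. The other cells are of different kinds in the 2 libraries, with 60 and 1341 in a monocyte range and 215 and 50 in a border macrophage range described below. Over all of them Sall1, Maf and Mef2c were at least 2-fold lower, against 23.8% of 11778 genes, and Cebpe was higher (1.19, 0.14 to 2.46) on 8 WT/WT UMIs, against 6.75%. Without the cells that hold at least 0.1% of UMIs of the microglial gate Cebpe was at 0.088 (-0.97 to 1.36) there. Within the monocyte range Cebpe was at -1.36 (-2.48 to 0.014), against the direction over all other cells. In the other cells outside all the ranges it was at 3.11 (0.33 to 8.54), on 11 LI/LI UMIs and 1 WT/WT UMI. Within the border macrophage range Maf was at -0.48 (-0.71 to -0.25), Mef2c at -0.85 (-1.16 to -0.55) and Sall1 at 0.22 (-1.87 to 1.94). None of the 3 was thus 2-fold apart there. Within the lymphoid range Mef2c was at 0.054 (-0.24 to 0.36) and Sall1 at -0.86 (-1.87 to 0.22). Maf was at least 2-fold lower there, at -1.32 (-1.86 to -0.78). In the other cells outside all the ranges Maf was at -1.21 (-1.44 to -0.99), Sall1 at -0.99 (-1.46 to -0.53) and Mef2c at -0.93 (-1.08 to -0.78). In the monocyte range all 3 were at least 2-fold lower, with Maf at -1.47 (-1.95 to -0.96). Sall1 was at -1.83 (-3.08 to -0.31) on 6 WT/WT UMIs and Mef2c at -1.02 (-1.33 to -0.69), near the limit. No share of all genes is given for these ranges. Over all other cells a median of 0.140% (WT/WT) and 0% (LI/LI) of UMIs came from the microglial gate genes. Their part in these ratios was not tested. TMM factors moved the ratios by 0.36 in progenitors, where 13.9% of genes were then higher and 8.49% lower, Irf8 was no longer 2-fold apart and Spi1 changed sign, and by 0.49 in the other cells, where 14.2% were higher and 13.2% lower and Irf8, Cebpa and Gfi1 changed sign.

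Between progenitors and neutrophils of the LI/LI library, Irf8, Gfi1 and Cebpa were at least 2-fold higher in progenitors, against 47.2% of 10905 genes, at log2 ratios of 3.20 (3.04 to 3.36), 1.86 (1.58 to 2.13) and 2.11 (1.85 to 2.36). Cebpe was lower at -1.36 (-1.51 to -1.21), and at 0.094 where the 68 cells of both gates were placed with the progenitors. Sall1 and Maf were also lower, on 6 and 11 progenitor UMIs, and 15.4% of genes were. Irf8 at 2.41 (1.92 to 2.92) and Cebpa at 1.39 (0.40 to 2.36) were higher in the WT/WT progenitors, against 32.7% of 4571 genes, and Sall1, Maf and Cebpe (-2.48, -4.13 to -1.21) were lower, against 21.4%. With TMM factors these ratios moved by -1.03 and -0.48, genes higher made up 20.9% and 23.0% and genes lower 31.2% and 30.6%, Irf8 stayed higher in both libraries, Cebpa in the LI/LI library only and Gfi1 in neither. Leaving out of the totals the gate, hemoglobin and mitochondrial genes gave 34.1% of genes higher and 21.9% lower in the LI/LI library and 24.5% and 29.1% in the WT/WT library, with the same factors called higher.

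The LI/LI library held enough cells to set out the 9 factors over ranges of progenitors and neutrophils. Its progenitors were split at 0.3% of UMIs from S100a8 and S100a9, and its neutrophils by the secondary granule genes Camp, Ltf and Ngp, whose transcripts peak in immature neutrophils, after 68 cells that meet both the progenitor and the neutrophil gate were set apart. Cebpe had 48.5 CPM (41.0 to 57.0) in the 137 progenitors under 0.3%, 299 (262 to 339) in the 29 above, 535 (503 to 569) in the 68 cells of both gates and 332 (323 to 342) in the 1590 neutrophils with at least 1% of granule UMIs. It was low in the later ranges, at 24.5 (19.1 to 31.0) in the 768 neutrophils with 0.1% to 1% and 12.4 (8.92 to 16.7) in the 1196 with under 0.1%. Gfi1 peaked earlier, with 25.4 (20.1 to 31.8), 127 (103 to 154), 90.9 (78.0 to 105), 7.33 (5.95 to 8.93), 0.350 (1 UMI) and 0.589 (2 UMIs) in the same order. Cebpe was thus 1.61-fold higher in the cells of both gates than in the granule range, and Gfi1 12.4-fold higher. These ranges are of scores and are not stages followed in time, and earlier or later means their order. The progenitors also held transcripts of monocytes, basophils and mast cells, as given above. The part of such a mixture in these levels was not tested.

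Irf8 ran the other way. It had 262 CPM (244 to 280.4) in progenitors under 0.3%, 68.9 (52.0 to 89.4) above, 28.6 (21.6 to 37.1) in the cells of both gates and 18.2 (16.0 to 20.7) at 1% of granule UMIs or more, a 9.15-fold difference between the first and the third. In the later ranges it had 25.6 (20.1 to 32.2) and 42.7 (36.1 to 50.3). Cebpa, which acts before Cebpe in the same family, was held longer, at 60.1 (51.7 to 69.5), 55.4 (40.4 to 74.1) and 39.8 (31.5 to 49.7), and then stood at 8.82 (7.30 to 10.6), 12.6 (8.84 to 17.5) and 18.9 (14.5 to 24.1). Mef2c went from 86.8 (76.7 to 98.0) to 35.7 (23.9 to 51.2) and 24.0 (17.6 to 31.9), and was higher again in the later ranges, at 31.2 (28.3 to 34.3), 47.3 (39.7 to 56.0) and 100.2 (89.8 to 111). Runx1 went from 82.2 (72.3 to 93.1) to 36.9 (24.9 to 52.7), 50.6 (41.1 to 61.5), 35.2 (32.1 to 38.5), 34.3 (27.9 to 41.9) and 51.0 (43.7 to 59.2). Spi1 changed least, from 437 (414 to 461) in the first range to 489 (477 to 501) in the granule range and 689 (661 to 717) in neutrophils under 0.1%. In that last range Maf (68.7), Sall1 (13.3) and Csf1r (223), a microglial marker, also had their highest neutrophil levels, so that microglial transcripts were more frequent there. Their part in the levels of Irf8, Cebpa, Mef2c and Runx1 in that range was not tested. The median depth ran from 30608 UMIs per cell in progenitors above 0.3% to 2438 in the last range, and 105 and 232 of 3622 cells lay within 20% of the 1% and the 0.1% limits.

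**Figure D4:**
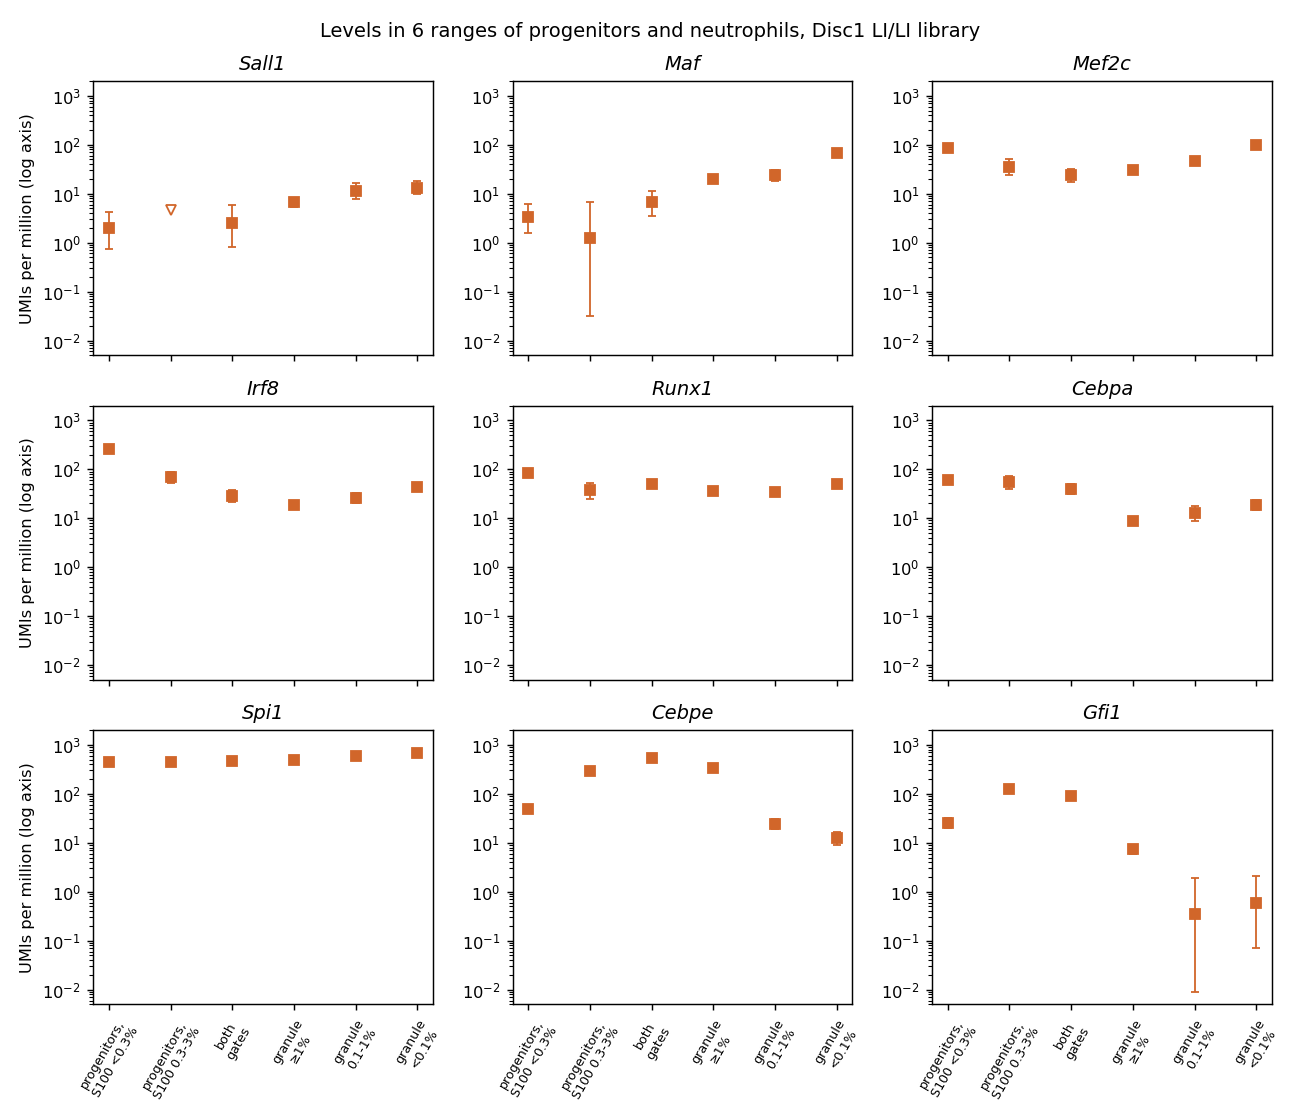
Level of the 9 factors in 6 ranges of LI/LI progenitors and neutrophils, in CPM on a log axis with 95% Poisson intervals; the triangle is the upper limit for Sall1 at 0 UMIs. Irf8 is highest in progenitors under 0.3% S100 UMIs, Gfi1 in those above and Cebpe in cells of both gates, while Spi1 stays between 437 and 689.

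In the WT/WT library 1 cell met both gates and held 15 Cebpe UMIs, 4 Gfi1 UMIs and none of Irf8. Its 49 neutrophils with at least 1% of granule UMIs had 203 Cebpe CPM (161 to 252), the 19 with 0.1% to 1% had 12.2 (1 UMI) and the 47 below had 6.31 (1 UMI). Within the range of at least 1% Cebpe differed between the libraries by a log2 ratio of 0.71 (0.40 to 1.05) and Spi1 by 0.21 (-0.0099 to 0.44).

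Single progenitors of the LI/LI library were then split by the presence of a second factor. Irf8 had 127 CPM in the 69 of 166 progenitors with a Cebpe UMI and 317 in those without, although the former were deeper, with a median of 30608 against 18031 UMIs per cell. In the 45 cells with a Gfi1 UMI Irf8 had 93.2 and Cebpe 218, against 306 and 23.8 in those without, at median depths of 35102 and 18103. Irf8 and Cebpe were both found in 36 cells, so the transcripts were not exclusive of each other within a barcode. No doublets were removed, and the part of doublets or stray transcripts in these 36 was not tested. Cebpa differed less, at 51.7 with a Cebpe UMI and 66.7 without, and Irf8 had 215 with a Cebpa UMI and 236 without. The number of factors other than Cebpe and Gfi1 found in a cell had a median of 5 of 7 in microglia of both libraries, 1 in neutrophils of both, and 5 (WT/WT) and 4 (LI/LI) in progenitors. At 1000 UMIs per cell the medians were 2 in microglia and 1 in the other classes.

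The cells outside the 3 gates were mixed, and were split by further markers into ranges, each at 0.2% of UMIs. In the border macrophage range (215 WT/WT and 50 LI/LI cells) Maf had 1199 CPM (1124 to 1279) and 859 (741 to 990.2), above its level in microglia of the same library, whereas Sall1 had 15.5 (8.01 to 27.1) and 18.1 (4.93 to 46.3). Sall1 was thus higher in microglia than in border macrophages, and Maf was not. Mef2c had 854 and 475 there, Irf8 194 and 176, Runx1 189 and 136, Cebpa 60.7 and 81.4 and Spi1 367 and 357. In the monocyte range (60 and 1341 cells) Spi1 had 563 (495 to 637) and 549 (535 to 564), Irf8 191 (153 to 237) and 171 (163 to 179), Cebpa 54.7 (35.0 to 81.3) and 56.1 (51.7 to 60.9) and Runx1 121 (90.4 to 158) and 90.4 (84.8 to 96.4). Cells of this range had little Maf (91.1 and 32.9) and Sall1 (13.7 and 3.83) in both libraries, and the LI/LI monocyte range had 2 Gfi1 UMIs against 77 in the progenitors under 0.3% S100. In the lymphoid range (70 and 273 cells) Spi1 was lowest of these ranges, at 101 (69.0 to 144) and 167 (144 to 193), Mef2c had 379.7 and 394 and Gfi1 had 2 and 10 UMIs. The 384 and 415 cells in none of these ranges were not named.

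**Figure D5:**
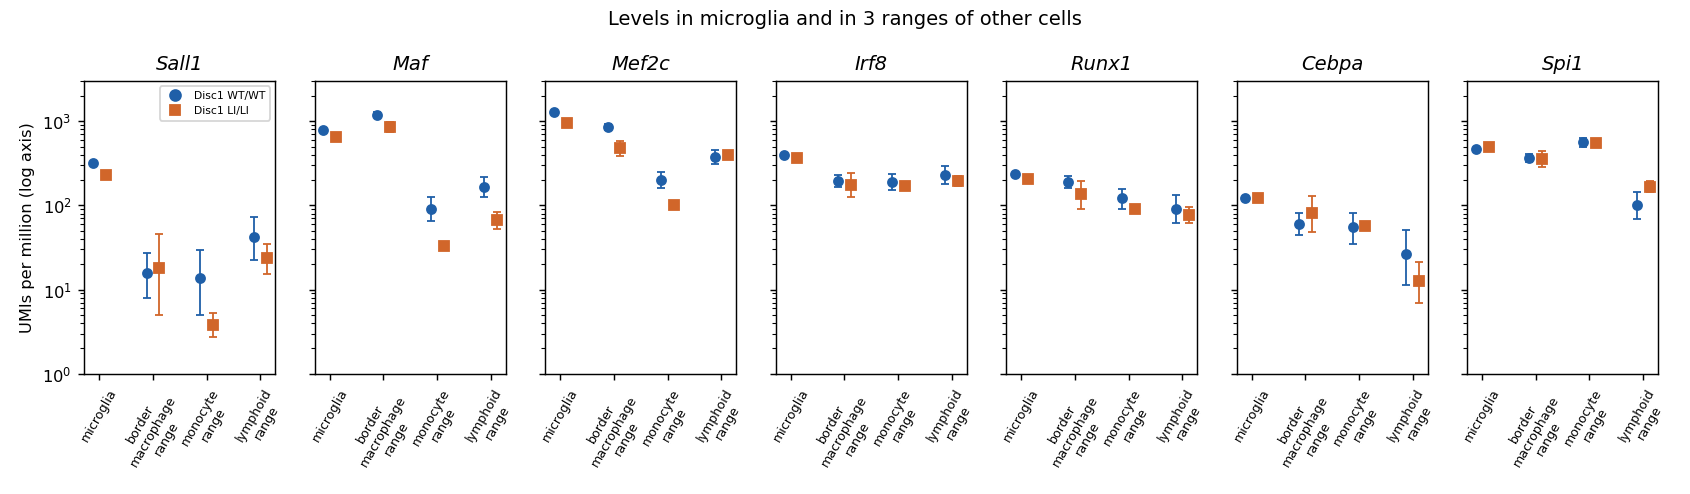
Level of 7 factors, in CPM on a log axis with 95% Poisson intervals, in microglia with under 0.2% border macrophage UMIs and in 3 ranges of the cells outside the gates, for the Disc1 WT/WT (circles) and Disc1 LI/LI (squares) library. Sall1 has 320.5 and 227 in microglia and at most 42.6 in the 3 other ranges, Maf has 1199 and 859 in the border macrophage range, and Spi1 is lowest in the lymphoid range.

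Genes of the same families and of neighbouring programs were counted with the same rule. Of 29 paralogs, 20 in the WT/WT and 22 in the LI/LI library had enough UMIs between neutrophils and microglia, and 8 in each were at least 2-fold lower in neutrophils, no larger a share than the 44.6% and 58.3% of all genes. Among them was Irf5 (178 against 37.5 CPM in WT/WT, 198 against 17.3 in LI/LI). The 4 and 5 that were higher, against 8.89% and 13.9% of all genes, include Cebpb, of stress and late granulocytes, with 410.0 in microglia against 1706 in neutrophils (WT/WT) and 605 against 2409 (LI/LI), and Irf7, of the interferon response, with 4.93 against 27.0 and 8.44 against 23.9. All 10 genes of a list drawn up as targets of Cebpe were higher in neutrophils of both libraries. The list holds Ltf, Camp, Ngp, Lcn2, Mmp8, Mmp9, Cd177, Lyz2, Chil3 and Ltb4r1, which are not all secondary granule genes. Of the 10, 9 (WT/WT) and 8 (LI/LI) were lower in progenitors than in neutrophils, against 21.4% and 15.4% of all genes. Camp had 5.33 and 128 in progenitors and 19987 and 27014 in neutrophils. The gates and the granule ranges use such transcripts, so these counts describe the cells and are not independent of the classes.

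Of 16 factors of stem and progenitor cells, 12 could be compared between LI/LI progenitors and neutrophils, and 6 were higher in progenitors, near the 47.2% of all genes. These were Gata2, of mast cell and stem cell programs (31.5 against 1.76 CPM), Myb (124 against 20.8), Myc (84.1 against 6.16), Lmo2 (160.1 against 43.8), Lyl1 (93.2 against 35.4) and Tal1 (3.90 against 1.81). Of 7 comparable in the WT/WT library 3 were higher, against 32.7% of all genes, with Myb at 63.9 against 13.5. Of 18 monocyte and macrophage factors, 14 (LI/LI) and 8 (WT/WT) could be compared. In progenitors 3 and 2 of them were higher than in neutrophils, against 47.2% and 32.7% of all genes. Another 7 and 4 were lower, against 15.4% and 21.4% of all genes, Klf2 and Nr4a1 among the lower in both. Klf4 and Zeb2 were higher in both libraries, with Klf4 at 139 CPM against 0 UMIs and 86.7 against 4.77. Of 10 macrophage receptors and related genes, 7 were lower in neutrophils than in microglia in both libraries, against 44.6% and 58.3% of all genes, Csf1r with 424 against 2002 and 92.2 against 1858. Between the genotypes in microglia, 0 of these 10 were 2-fold apart. Of 22 paralogs 0 were at least 2-fold lower, as were 4.93% of all genes, and 3 (Maff, Spib and Runx2, each with at most 15 UMIs in either library) were higher, as were 2.55%. In the LI/LI microglia 9 of the 10 genes listed as targets of Cebpe were at least 2-fold higher, with a median log2 ratio of 5.31. Camp had 140.2 against 3.37 CPM, and Cebpe had a ratio of 3.93 on 17 LI/LI and 4 WT/WT UMIs. These are sums over a class and do not place the transcripts in the same cell. In LI/LI microglia Cebpe stood at 0.801% of its neutrophil level, and Lcn2 and Ltf at 0.902% and 0.614% of theirs. The part of neutrophil transcripts in these ratios was not tested.

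The genes whose levels ran most alike over the 8 sums of class and library were named for each factor by the Pearson correlation of log2 levels, over 4913 genes of at least 50 CPM (4914 for Gfi1). These 8 values share libraries and mixed cells, and the correlations are descriptions. Sall1 was closest to P2ry13 (0.997), Capn3 (0.993) and Slc1a3 (0.992), and Maf to Tgfbr2 (0.991) and Ptprj (0.991). P2ry13 and Slc1a3, a purine receptor and a glutamate transporter, are used by microglia, and so is the receptor Tgfbr2. Cebpe was closest to Glrx (0.988), Mgst2 (0.982) and Sgms2 (0.977), and Gfi1 to Prss57 (0.962), a serine protease of neutrophil granules, Xpc (0.925) and Rgcc (0.921). Spi1, the most even of the factors, had no gene above 0.821 (Rhog). Among the factors themselves Sall1 and Maf had 0.942, Irf8 and Cebpa 0.955, and Cebpe and Gfi1 0.773, while Cebpe had -0.886 with Runx1 and -0.857 with Mef2c.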

How the data were processed

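Single cells of 2 libraries, 1 per genotype, were counted by the authors with Cell Ranger on mm10, and the matrix headers name version 6.1.2. The deposited values are UMI counts per gene and cell, neither normalised nor scaled. The submitters' processing notes also name STAR and Seurat 3.0.1. Libraries were made on Chip B or Chip G, and the sources used here do not give which library used which, nor a cell filter, a doublet step or the strand setting of the counting.

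Barcodes under 200 genes or over 10% mitochondrial UMIs were removed (6 WT/WT, 17 LI/LI). Counts were summed per class and library and divided by the class total (UMIs per 1000000), with exact Poisson intervals for levels, Clopper-Pearson intervals for shares and ratios (95%), and a floor of 3 counts where a sum was 0. Droplet counts are of molecules, and these intervals leave out the spread between mice. For shares, cells were also thinned to 1000 UMIs. Genes were called apart at 2-fold with at least 20 UMIs over both sums. All 9 factors are named, with up to 3 of the genes closest to each by Pearson correlation. Values of a few genes are not reported here. With 1 library per genotype no test was possible. The members and gene lists were chosen with earlier results of these data known, and the cells are described with rebuilt class names. Positions are from GENCODE vM21 (32235 genes matched), promoters from RefSeq (GRCm38.p6). TMM factors came from edgeR 4.0.16 in R 4.3.3, all else from Python 3.11.15 (pandas 2.3.3, scipy 1.17.1, numpy 2.4.6, matplotlib 3.10.9). The calls were tested on simulated sums of microglia, for genes of at least 200 UMIs. Calls on fewer UMIs, calls in the other classes and the spread between cells were not covered. In all, 14 alternatives were planned and 2 were added after the values were seen.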

Additional observations from a re-analysis of the deposited data

How the results depend on the processing

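Of the counts of factors at least 2-fold apart, recomputed under 14 planned and 2 added alternatives, 128 stayed within 1.5 times the reported value and 15 did not. The 1 factor apart between the genotypes in microglia (Cebpe) became 0 with at least 500 genes per cell, with doubled gates and after thinning. It also became 0 without the top 5% of cells by UMIs and with at least 50 UMIs for a call, where 7 factors could still be compared. Where the log2 ratio of Cebpe was recomputed it lay between 3.92 and 4.14. The main value rests on 17 LI/LI and 4 WT/WT UMIs. The 2 factors higher in WT/WT progenitors than neutrophils became 1 (Irf8) with at least 500 genes, doubled gates, TMM factors or at least 50 UMIs, and 0 after thinning. In the LI/LI library the 3 became 5 with the mean over cells, adding Mef2c and Runx1. Thinning also took the 4 factors apart between the genotypes in progenitors to 0, with 2 left to compare, and the factors higher in neutrophils than microglia from 1 to 0 (WT/WT) and from 2 to 1 (LI/LI). Thinning leaves fewer UMIs. Without cells that held microglial transcripts, an alternative added after the values were seen, the 5 factors apart between the genotypes in neutrophils became 1, and the ratios of Irf8 and Cebpa reversed to 0.85 and 0.36, on 3 WT/WT UMIs each. Placing cells of both gates with the progenitors turned the LI/LI Cebpe ratio of progenitors over neutrophils from -1.36 to 0.094. Of 1002 recomputed log2 ratios 35 changed sign, and 3 of these, the ratios just given, had been at least 2-fold apart. In all, 796 ratios were classed as the same, 203 as moved and 3 as reversed. Of the levels 770 were classed as the same and 238 as moved. The largest shift of a log2 ratio was 5.08, without cells that held microglial transcripts. No paired analysis was possible because each genotype has 1 library, and for the same reason no replicate could be left out. Few UMIs limit Gfi1 and Cebpe in microglia, and the small number of cells limits all 9 factors in the 7 WT/WT progenitors.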
